A study of Mus musculus with 41 samples.

Results

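The chromatin occupancy of MLL3/4 in epidermal stem cells (EpdSCs) was compared between W1 and W2, that is 1 and 2 weeks after doxycycline (DOX) switched on a *Sox9* transgene. All peaks of the MLL3/4 lists of these weeks were taken, 31539 at W1 and 29281 at W2, which made 60820 of the 328105 peaks in the 18 lists of the series. Cleavage under targets and release using nuclease (CNR) finds where a protein sits on chromatin by sequencing the DNA that an antibody-tethered nuclease cuts out around it. The mice were CD1 males of the genotype K14rtTA; TRE-myc-Sox9, in which the *Krt14* promoter of basal epithelial cells drives the DOX-dependent activator of MYC-tagged *Sox9*. They received DOX by injection at postnatal day 21 and by feed afterwards, and were 28 days old at W1, 35 at W2 and 21 at D0, the state before DOX, so that age and weeks of DOX cannot be told apart. Cells were sorted from back skin as CD49f-high, Ly6A-high and CD34-negative, and negative for CD31, CD45, CD117 and CD140a, which mark endothelial, immune, melanocytic and fibroblast cells. Each week had 2 samples, cut with the same MLL3/4 antibody and pooled by the authors into 1 list. With 1 list a week no test between weeks could be made, and a range given beside a share is its 95% Wilson interval that covers the counting of peaks and not the spread between mice.

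MLL3 and MLL4 (genes *Kmt2c* and *Kmt2d*) are large histone methyltransferases that place the single methyl mark on lysine 4 of histone H3 at enhancers, in a complex with UTX, NCOA6 and the WDR5 core. They are brought to enhancers largely by transcription factors. In skin, SOX9 is the factor of hair follicle stem cells, whereas GATA3, p63, KLF4 and GRHL factors belong to the epidermal programme.

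The sort was compared with marker genes by the presence of an MLL3/4 peak centred within 1 kb of a transcript start. Of 6 epidermal stem cell markers, 5 (*Krt5*, *Krt14*, *Itga6*, *Trp63* and *Col17a1*) had such a peak at W1 and 5 at W2. None of 5 immune and none of 5 endothelial markers had one at W1 or W2. Of 5 melanocyte markers only *Dct* had one at W1 and none at W2, and of 5 fibroblast markers only *Col1a1* had one, at W2. Among 5 hair follicle stem cell markers, *Krt15* had one at both weeks and *Nfatc1* at W2. A peak list shows occupancy and not expression, and in a sorted pool occupancy in more cells and more occupancy per cell cannot be told apart.

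The windows below show where peaks shared by both weeks, seen at 1 week alone, or stronger at W2 were centred. The *Clec2d*, *Bms1*, *Abcc4* and *Rab11fip5* windows belong to the peaks first in their class by total signal, the summed coverage over a peak, and that at *Saysd1* to the first outside a stretch around *Cwc22* described later. The *Asic2* window is from the shared peak with the highest ratio of W2 over W1 signal. The *Tle1*, *Cd244a* and *Gm5269* windows rank lower in their classes and were added after the words had been counted, and each holds a SOX word. Each reaches 50 bp to either side of the centre of maximum signal on the plus strand of mm10 (GRCm38.p6), read from the RefSeq genome. Capitals mark a SOX word (CCATTGT, its T variant CCTTTGT, and the forms GCATTGT and again with T GCTTTGT) or an AP1 word (TGACTCA) on either strand. A word is a match of letters and not a measured binding site.
Clec2d region, W1 and W2, chr6:129163500-129163600: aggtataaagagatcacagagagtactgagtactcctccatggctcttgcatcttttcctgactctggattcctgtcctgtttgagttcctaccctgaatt
Tle1 region, W1 and W2, chr4:72233953-72234053: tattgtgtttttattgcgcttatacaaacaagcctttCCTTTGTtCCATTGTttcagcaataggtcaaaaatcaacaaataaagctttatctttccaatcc
Bms1 region, W1-only with a D0 peak, chr6:118388396-118388496: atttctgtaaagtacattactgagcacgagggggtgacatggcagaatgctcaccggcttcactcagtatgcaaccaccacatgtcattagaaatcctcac
Saysd1 region, W1-only without a D0 peak, chr14:20075425-20075525: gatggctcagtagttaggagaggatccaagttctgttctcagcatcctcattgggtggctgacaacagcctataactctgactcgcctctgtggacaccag
Cd244a region, W1-only without a D0 peak, chr1:171551721-171551821: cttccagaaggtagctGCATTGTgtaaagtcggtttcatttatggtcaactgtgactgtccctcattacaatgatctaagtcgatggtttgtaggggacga
Abcc4 region, W2-only with a D0 peak, chr14:118474353-118474453: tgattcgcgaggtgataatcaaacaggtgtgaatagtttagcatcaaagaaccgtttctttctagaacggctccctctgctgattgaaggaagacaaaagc
Rab11fip5 region, W2-only without a D0 peak, chr6:85379022-85379122: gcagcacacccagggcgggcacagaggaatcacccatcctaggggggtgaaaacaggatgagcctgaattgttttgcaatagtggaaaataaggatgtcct
Gm5269 region, W2-only without a D0 peak, chr1:45892704-45892804: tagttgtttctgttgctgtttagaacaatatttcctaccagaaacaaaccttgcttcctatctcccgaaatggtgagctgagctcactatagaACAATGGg
Asic2 region, higher at W2, chr11:81841308-81841408: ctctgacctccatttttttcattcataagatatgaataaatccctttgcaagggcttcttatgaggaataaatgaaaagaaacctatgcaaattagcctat

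The *Tle1* window, from a region between genes, held 2 SOX words, and the *Cd244a* and *Gm5269* windows held 1 each. The other windows shown held no word of either kind. Of the 25 windows read at named peaks, 4 held a SOX word, so that those shown are not a fair sample of them. *Clec2d* encodes a lectin, *Tle1* a co-repressor of the Groucho family, *Bms1* a ribosome assembly factor, *Cd244a* a receptor of natural killer cells, *Abcc4* a transporter of organic anions, *Rab11fip5* an effector of vesicle traffic and *Asic2* an acid-sensing ion channel. These are the nearest protein-coding genes, and no link between a region and the expression of its gene was measured.

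Most peaks of one week were listed in the other. Of the W1 peaks, 19836 of 31539 (62.9%, interval 62.4 to 63.4%) were overlapped by a W2 peak by at least 1 bp, and of the W2 peaks 19715 of 29281 (67.3%, 66.8 to 67.9%) by a W1 peak. W1-only peaks, those with no W2 peak, numbered 11703 (37.1% of the W1 list), and W2-only peaks 9566 (32.7% of the W2 list). A D0 peak overlapped 60.3% of W1 peaks (59.8 to 60.8%) and 64.3% of W2 peaks (63.8 to 64.9%).

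The 3 lists were merged into 53720 regions. Of these, 14395 (26.8%) were held by D0, W1 and W2, and 4510 (8.40%) by W1 and W2 without D0. A further 3812 (7.10%) were held by D0 and W1 alone, and 3645 (6.79%) by D0 and W2 alone. W1 held 7677 regions (14.3%) by itself and W2 held 5657 (10.5%).

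**Figure D1:**
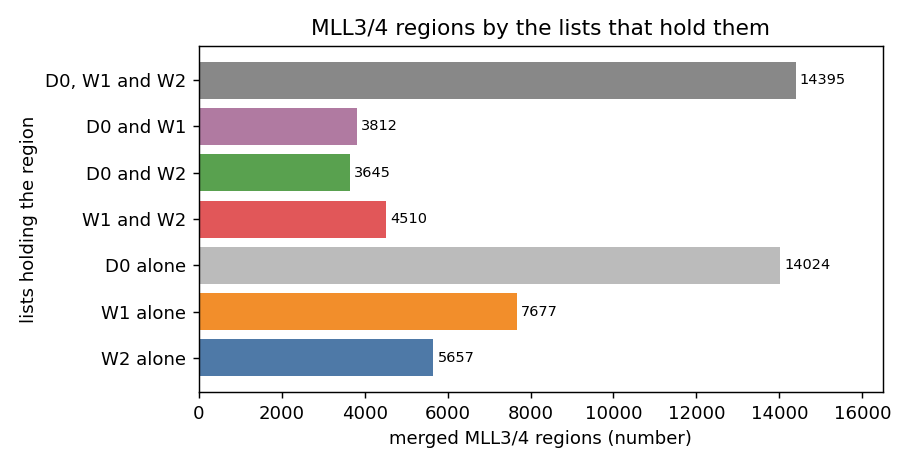
Number of merged MLL3/4 regions (x axis) by the set of lists that hold them (y axis), from the D0, W1 and W2 lists of 1 pool each. The 14395 regions in all lists and the 14024 at D0 alone are the longest bars, and 7677 regions were in the W1 list alone against 5657 in the W2 list alone.

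W1 peaks of higher signal were more often listed again at W2. In the weakest decile of the W1 list, with total signals of 484 to 555, a W2 peak overlapped 18.1% (16.8 to 19.5%). In the decile numbered 5 the share was 58.2% (56.5 to 59.9%), and in the strongest 99.4% (99.1 to 99.6%). The W2 list went from 26.1% (24.6 to 27.7%) in its weakest decile to 99.6% (99.3 to 99.8%) in its strongest. W1-only peaks had a median total signal of 690 against 1500 in W1 peaks shared with W2, and 55.6% of them had the lowest maximum in the lists, a coverage of 5, against 15.8% of the shared ones. W2-only peaks had a median of 740 against 1570, and 50.6% against 16.3% at that maximum. The depth of the pools is unknown, and its part in these shares was not tested.

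Within each decile the shared fraction was higher with a D0 peak than without one. In the decile numbered 5 of the W1 list, 64.6% (62.4 to 66.7%) of 1938 peaks with a D0 peak were listed at W2, and 48.1% (45.3 to 50.9%) of 1216 without one. In the weakest decile the values were 43.5% (40 to 47.1%) and 10.3% (9.14 to 11.6%).

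**Figure D2:**
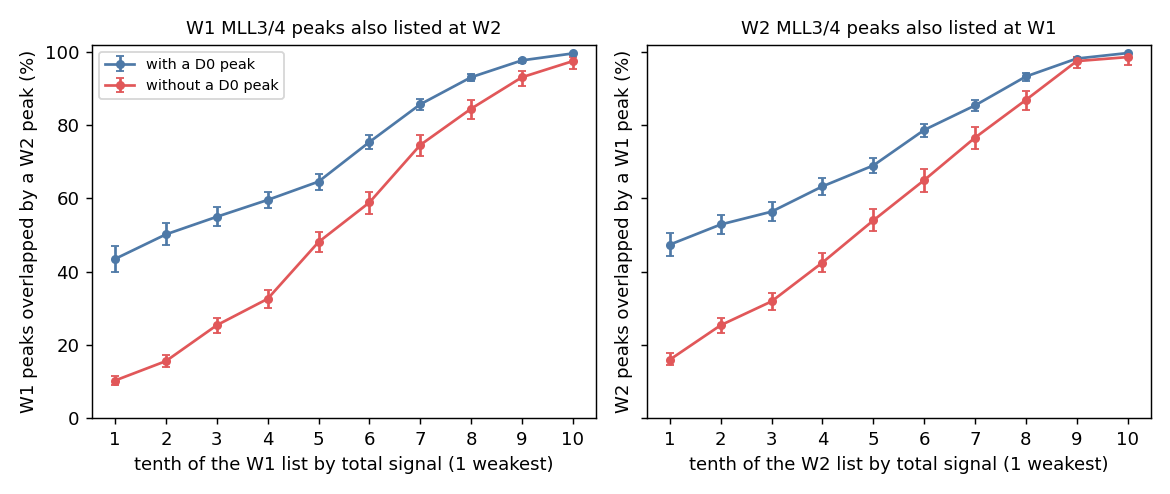
Share of MLL3/4 peaks overlapped by a peak of the other week (y axis, %) by decile of total signal (x axis, 1 weakest) for the W1 list (left) and the W2 list (right), with 95% Wilson intervals. Peaks with a D0 peak lie above those without one in every decile, from 43.5% against 10.3% in the weakest decile of W1, and all points come near 100% in the strongest deciles.

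The next question was which sites went back to the D0 state. D0 held 37072 peaks, of which 17963 had no W1 peak. At W2, 3939 of these (21.9%, 21.3 to 22.5%) were listed again, whereas of the 19109 D0 peaks kept at W1, 15092 (79.0%, 78.4 to 79.6%) were also listed at W2. Of the 12518 W1 peaks gained over D0, 4841 (38.7%, 37.8 to 39.5%) were still listed at W2, and the other 7677 were not, which is again the D0 state at those sites. Of 19021 W1 peaks with a D0 peak, 14995 (78.8%, 78.2 to 79.4%) were still listed. A D0 peak lay under 34.4% of the W1-only peaks (33.5 to 35.3%) and 40.9% of the W2-only peaks (39.9 to 41.9%). In lists cut to 29281 peaks each, the latter values were 32.5% and 35.2%. Among stronger peaks the shares depended on which lists were cut. In the upper 50% of the list described, 35.5% of lost D0 peaks were listed again, 77.3% of gained W1 peaks were still listed, and 57.2% of W1-only and 61.2% of W2-only peaks had a D0 peak. In the upper 50% of every MLL3/4 list these were 19.8%, 54.8%, 44.2% and 45.4%, so that lost D0 peaks were listed again less often.

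Among the D0 peaks lost at W1, those at promoters were listed again at W2 more often than the rest. A peak was called a promoter peak where its centre of maximum signal was within 1 kb of an annotated transcript start. Of D0 promoter peaks lost at W1, 1467 of 5140 (28.5%, 27.3 to 29.8%) returned, against 1283 of 6730 in introns (19.1%, 18.1 to 20%) and 1099 of 5551 between genes (19.8%, 18.8 to 20.9%). Of D0 peaks kept at W1, 75.1% (73.8 to 76.3%) of those at promoters were also listed at W2, against 78.8% (77.8 to 79.7%) in introns and 81.9% (80.9 to 82.8%) between genes. By quintile of D0 signal, kept promoter peaks had the lower share in the weakest quintile, at 51.9% (46.8 to 57%) against 61.3% (58.6 to 64%) of other kept peaks, but in the strongest the shares were 94.5% (93.1 to 95.6%) and 93.7% (93 to 94.3%), with overlapping intervals. Of W1 peaks gained over D0, 33% (30.7 to 35.3%) at promoters, 41% (39.7 to 42.3%) in introns and 38.3% (37 to 39.7%) between genes were still listed. Over all W1 peaks, with and without a D0 peak, the order was the other way, with 63.9% (62.7 to 65.1%) of promoter peaks and 62.6% (62 to 63.2%) of other peaks listed at W2. In the weakest quintile of W1 signal these were 34.3% (31.7 to 36.9%) and 19.8% (18.7 to 20.9%), and in the strongest 98.3% (97.2 to 99%) and 98.1% (97.7 to 98.4%). Among lost D0 peaks, those at promoters returned more often than all others in each quintile of D0 signal. In the strongest quintile, 106 of 152 lost promoter peaks returned (69.7%, 62 to 76.5%), and 215 of 560 others (38.4%, 34.5 to 42.5%). In the weakest quintile the values were 14.5% (12.8 to 16.3%) and 9.82% (8.97 to 10.7%).

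The W2 list as a whole held more promoter peaks than the W1 list, 22.4% against 19.7%, and fewer than D0 with 26.4%. Peaks shared by both weeks hardly differed, with 20% of the shared W1 peaks and 20.1% of the shared W2 peaks at promoters. Among W1-only peaks the share was 19.1% and among W2-only peaks 27.3%. The highest share, 37.9%, was in W2-only peaks with a D0 peak, and the lowest, 10.9%, in W1 peaks gained over D0 and kept at W2. W2-only peaks had a median GC content of 47.5% within 250 bp of the centre, against 44.5% in W1-only peaks, and lay at a median of 5664 bp from a transcript start against 8318 bp.

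**Figure D3:**
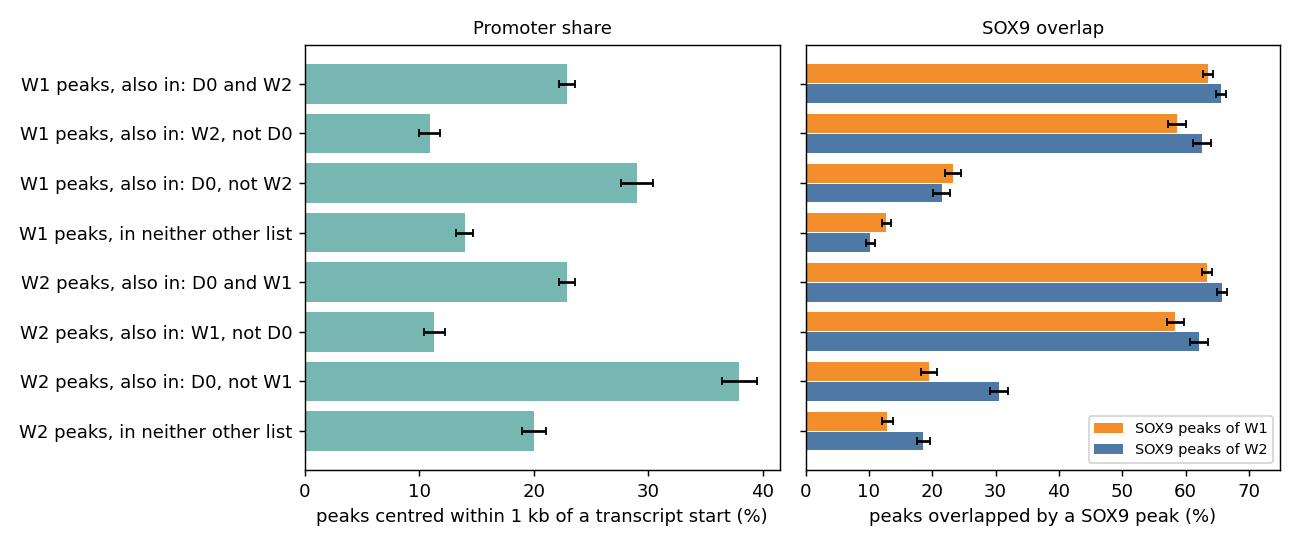
Promoter share (left) and overlap with the SOX9 lists of W1 and W2 (right), in %, for W1 and W2 MLL3/4 peaks split by the other lists that hold them (y axis), with 95% Wilson intervals. W2 peaks also in D0 but not W1 have the longest promoter bar (37.9%), and the 4 classes shared by W1 and W2 have SOX9 overlaps of 58.4 to 65.7%.

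SOX9 peaks from mice of the same genotype and ages overlapped a larger share of the MLL3/4 peaks common to both weeks than of those seen at 1 week. The SOX9 list held 15651 peaks at W1 and 18657 at W2, so that the lists differ in length. Both were cut by the authors to peaks above a score limit, so a site outside a SOX9 list may still hold SOX9. Of W1 MLL3/4 peaks shared with W2, 62.4% (61.7 to 63%) overlapped a W1 SOX9 peak, and of W1-only peaks 16.3% (15.7 to 17%). The W2 SOX9 list overlapped 64.8% (64.2 to 65.5%) of the shared W2 peaks and 23.5% (22.6 to 24.3%) of the W2-only peaks. W2-only peaks overlapped the W2 SOX9 list in 23.5% and the W1 SOX9 list in 15.6% (14.9 to 16.4%) of cases, and W1-only peaks overlapped the W1 list in 16.3% and the W2 list in 14.1% (13.4 to 14.7%). The shares of peaks seen at 1 week depended on signal. Of W1-only peaks in the upper 50% of the W1 list by total signal, 37.3% (35.1 to 39.5%) overlapped W1 SOX9, and of W2-only peaks in the upper 50% of the W2 list 46.3% (43.8 to 48.7%) overlapped W2 SOX9.

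The persistence of an MLL3/4 peak differed with the week whose SOX9 list held a peak there. Among W1 peaks gained over D0, 82.6% (81.2 to 84%) of 2892 with SOX9 at both weeks were still listed at W2. With SOX9 at W2 alone the share was 69.6% (66.6 to 72.5%) of 921, with SOX9 at W1 alone 48.9% (45.7 to 52.1%) of 926, and with SOX9 at neither week 17.4% (16.6 to 18.3%) of 7779. The order was the same for W1 peaks with a D0 peak, at 94.4%, 82.5%, 76.6% and 57.5%.

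Seen from W2, SOX9 at W1 and at W2 changed places. Among W2 peaks without a D0 peak, 83.3% (81.9 to 84.6%) with SOX9 at both weeks were already listed at W1, 63.6% (60 to 67%) with SOX9 at W1 alone, 52.2% (49.4 to 55%) with SOX9 at W2 alone and 23.8% (22.7 to 24.9%) with SOX9 at neither. Among D0 peaks lost at W1, 68.4% (64.9 to 71.6%) of 727 with SOX9 at both weeks were listed again at W2. The shares were 55.6% (52.9 to 58.3%) of 1255 with SOX9 at W2 alone, 43.8% (40 to 47.7%) of 634 with SOX9 at W1 alone and 16.1% (15.5 to 16.7%) of 15347 with SOX9 at neither.

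MLL3/4 peaks with SOX9 were stronger than those without, so the shares were also taken within quintiles of total signal. In the weakest quintile of the W1 list, 59.9% (55 to 64.6%) with SOX9 at W2 alone and 41.8% (36.6 to 47.1%) with SOX9 at W1 alone were listed at W2, against 14.5% (13.6 to 15.5%) with SOX9 at neither. In the upper middle quintile the values were 92.6% (90.7 to 94.2%), 78.1% (75 to 80.9%) and 74.2% (72 to 76.2%). In the W2 list the weakest quintile had 43.8% (39.4 to 48.2%) with SOX9 at W2 alone and 57.1% (52.6 to 61.5%) with SOX9 at W1 alone already listed at W1. With SOX9 at neither the share was 22.7% (21.5 to 24%). In the upper middle quintile of W2 they were 77.2% (74.5 to 79.8%), 92.3% (89.9 to 94.3%) and 76.1% (73.7 to 78.3%), in the same order. In the strongest they were 94.2% (91.7 to 95.9%), 99.2% (97.2 to 99.8%) and 96.1% (93.8 to 97.5%). In both, the intervals of SOX9 at W2 alone and at neither overlapped. Overlap of SOX9 and MLL3/4 lists does not show which came first.

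**Figure D4:**
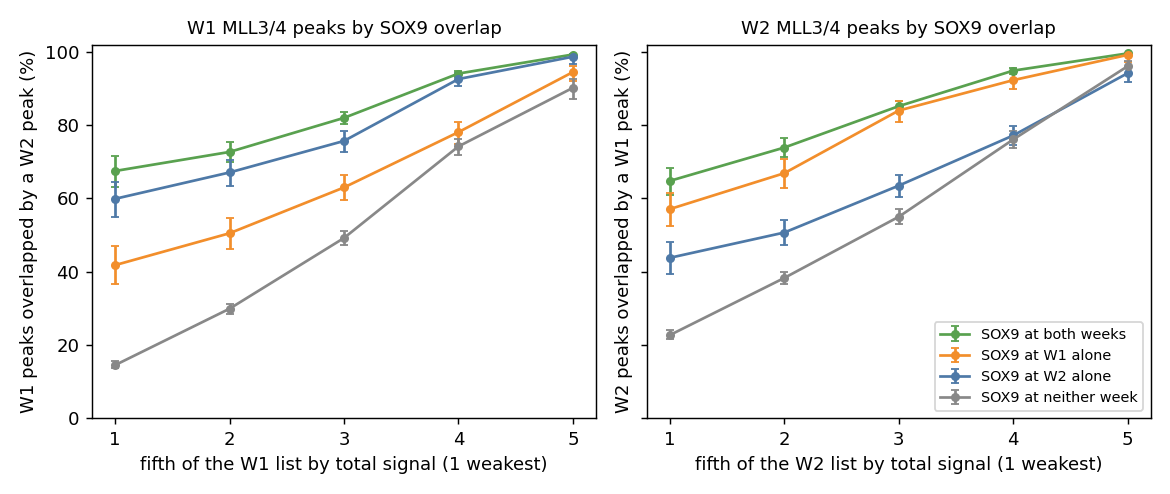
Share of W1 MLL3/4 peaks overlapped by a W2 peak (left) and of W2 peaks overlapped by a W1 peak (right), in %, by quintile of total signal (x axis, 1 weakest) and by the weeks whose SOX9 lists overlap the peak, with 95% Wilson intervals. In the weakest quintile of W1 the share was 59.9% with SOX9 at W2 alone and 41.8% with SOX9 at W1 alone, and in the weakest quintile of W2 these groups changed places at 43.8% and 57.1%.

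The signal of peaks present at both weeks was then set against SOX9. There were 17651 W1 peaks that matched 1 W2 peak and no other, with a median log2 ratio of W2 over W1 total signal of 0.04, which was subtracted. The middle 50% of these relative ratios lay between -0.42 and 0.41. At peaks with SOX9 at W2 alone the median was 0.20 (2248 peaks), at those with SOX9 at W1 alone -0.23 (1676 peaks), with SOX9 at both 0.01 (9071 peaks) and with SOX9 at neither -0.04 (4656 peaks). Of these peaks, 43 (0.244%) were at least 4-fold higher at W2 and 45 (0.255%) at least 4-fold lower. The total signal grows with the width of a peak. By the maximum signal the median relative ratio was 0.00 at peaks with SOX9 at W2 alone and -0.15 at those with SOX9 at W1 alone. The 599 peaks of the former kind without a D0 peak had 0.14 by the maximum and 0.29 by the total. The maximum is a small whole number at most peaks, so its ratios are coarse. By the maximum signal 3 were 4-fold higher and 1 was 4-fold lower.

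Short DNA words near the centres of the peaks were counted in each class. The SOX words lay within 50 bp of the centre in 16.9% of the W1 peaks gained over D0 and kept at W2 (15.9 to 18%), against 6.56% (6.08 to 7.07%) of equally wide windows lying 1 kb away on both sides. In W1-only peaks they lay in 8.12% against 6.43% of the side windows, and in W2-only peaks in 7.99% against 6.32%. Among W1-only and W2-only peaks with a D0 peak the shares were 5.81% and 5.58%, against 6.02% and 5.87%. Among those without a D0 peak they were 9.33% and 9.65%, against 6.65% and 6.63%. The AP1 word, bound by FOS and JUN proteins, lay in 9.87% of the W1-only and 8.59% of the W2-only windows, against 1.89% and 2.01% of side windows, and in 13.8% of shared W1 windows. The GATA words AGATAAC and AGATAAG lay in 3.32% of W1-only and 2.58% of W2-only windows, against 2.47% and 2.29%. The CTCF word, that of the factor bounding chromatin loops, lay in 1.09% of W1-only and 1.07% of W2-only windows and in 0.272% of the shared W1 windows. The side windows had 0.226%, 0.303% and 0.255%.

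Cultured EpdSCs that carried the inducible, MYC-tagged WT-SOX9 transgene, brought in by lentivirus, but received no DOX gave another MLL3/4 list, of 33975 peaks. It overlapped 41.1% of W2-only peaks with a D0 peak and 37.6% of W1-only peaks with a D0 peak. It overlapped 14% of W2-only and 10.9% of W1-only peaks without a D0 peak, and 59.3% of the W1 peaks in all lists.

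The W1-only peaks of highest total signal among those without a D0 peak lay together. On chromosome 2, a stretch of 157 kb around *Cwc22*, a gene for a splicing factor (chr2:77869660-78026997), held 85 W1-only peaks. D0 had 7 peaks there, W1 had 104 and W2 had 27, with covered lengths of 3253, 66860 and 12195 bp and summed total signals of 17304, 245774 and 38374. No other run of W1-only or W2-only peaks less than 20 kb apart reached 10 peaks. Of the 85, 3 overlapped a W1 SOX9 peak and 1 a D0 peak. The highest 3 W1-only peaks without a D0 peak lay in it, with total signals of 7167, 5157 and 4307. A DNA segment that holds *Cwc22* is known to vary in copy number among mice, and CD1 is an outbred stock. The copy number was not measured here and its part in the result was not tested. Without the stretch, 63% of W1 peaks were shared with W2.

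**Figure D5:**
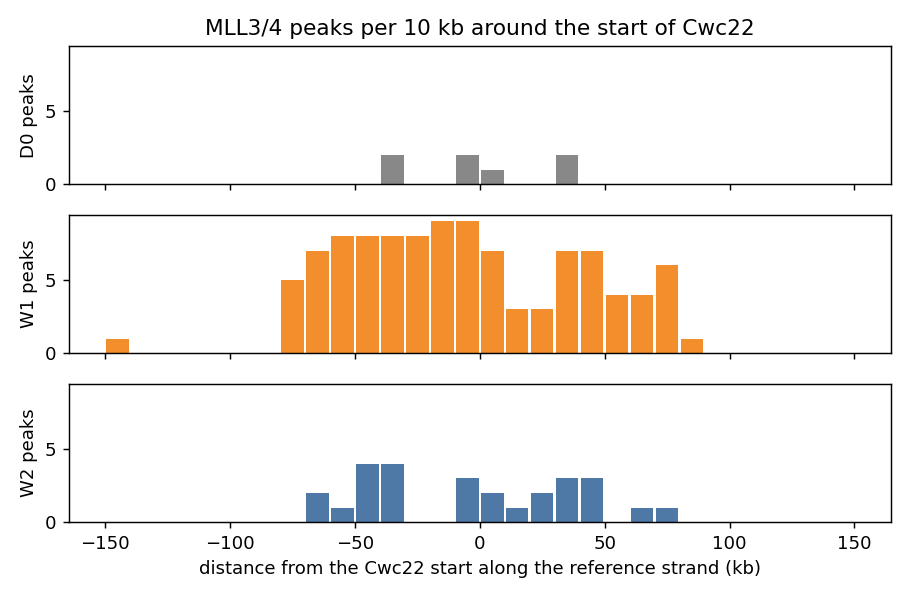
Number of MLL3/4 peaks in bins of 10 kb (y axis) by distance from the *Cwc22* start (x axis, kb) in the D0 (top), W1 (middle) and W2 (bottom) lists. W1 bins hold up to 9 peaks over a continuous stretch, and W2 and D0 bins up to 4 and 2.

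Outside that stretch, the leading W1-only peaks without a D0 peak lay at *Saysd1* (total signal 3284), at 7011 bp from *Cd244a* (2735) and 132028 bp from *Noct* (2722), a circadian phosphatase gene. They were chosen after the stretch was seen. The *Saysd1* and *Cd244a* peaks had a maximum of 6 over 995 and 1270 bp, near the lowest maximum of 5. The *Noct* peak had 13 over 542 bp. Of these, the *Noct* peak overlapped SOX9 peaks of W1 and W2 and the others no SOX9 peak. W1-only peaks with a D0 peak were led by 1 in an intron of *Bms1*, with totals of 1775 at D0 and 6079 at W1. The next lay 52541 bp from *Ezh2*, the Polycomb methyltransferase (633 at D0 and 4738 at W1), and 7555 bp from *Mrgpra3*, an itch receptor of sensory neurons (580 and 4048). The *Bms1* peak had a maximum of 23 over 460 bp, and the peaks near *Ezh2* and *Mrgpra3* 7 over 1712 and 1517 bp. None of these 3 overlapped a SOX9 peak of any time point.

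The leading W2-only peaks all overlapped a SOX9 peak of W2. Those with a D0 peak lay 7367 bp from *Abcc4*, with totals of 1058 at D0 and 4536 at W2, 4133 bp from *Bmp7*, a BMP ligand (2821 and 4407), and 83510 bp from *Barx2*, a homeobox factor of the hair follicle (497 and 3910). The peak near *Abcc4* also overlapped a W1 SOX9 peak and the other two did not. Those without a D0 peak lay 4129 bp from *Rab11fip5* (3857), in an intron of *Asic2* (3788) and 1541 bp from *Gm5269* (3539). Of these, only the *Gm5269* peak overlapped a W1 SOX9 peak. The *Asic2* and *Gm5269* peaks also overlapped peaks of the SOX9 lists of W6, from mice 63 days old, and of W12, for which skin of this genotype had been grafted onto immunocompromised mice, so that W12 is not intact skin of the same kind.

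The *Asic2* intron also held the shared peak with the highest ratio of W2 over W1. At chr11:81840698-81841745 the total signal was 513 at D0, 523 at W1 and 5793 at W2, a relative log2 ratio of 3.42, with a SOX9 peak at W2 and none at W1. Next in this order was a pair of narrow peaks at the promoter of *Tslp*, a keratinocyte cytokine gene, with 3079 at D0, 1042 at W1 and 8516 at W2 for the first, and 3532, 747 and 4672 for the second, and no SOX9 peak. Their maxima at W2 were 105 and 54 over only 218 and 145 bp, where the median maximum of the W2 list was 7. The lowest ratios were in introns of *Rad51b*, a recombination gene (3484 at W1 and 540 at W2), and *Tom1l2*, a trafficking adaptor gene (3406 and 538), and 56880 bp from *Cd109* (3442 and 589). All of these overlapped SOX9 peaks at both weeks, and their W2 peaks were 125 to 227 bp wide.

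The strongest W1 peaks held by all lists lay in stretches known for satellite repeats. The first lay at the promoter of *Gm10800*, with totals of 1015667 at D0, 988132 at W1 and 926914 at W2, and the second at that of *Gm10801* (475160, 465433 and 436810). The strongest W2 peaks shared with W1 and missing at D0 lay 15938 bp from *Clec2d* (10566 at W1 and 12815 at W2), 32689 bp from *Tle1* (12952 and 11921) and 219459 bp from *Adgrl2*, an adhesion receptor gene (10241 and 10831). All 3 overlapped SOX9 peaks at W1, W2, W6 and W12.

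Peaks were then counted over each protein-coding gene with 50 kb to each side. *Cwc22* led the excess of W1-only over W2-only peaks (71 and 5), followed by *Gm37240* (20 and 9), a gene model of over 1 Mb, *Dab1*, a reelin adaptor (11 and 1), *Rasgef1b*, a RAS exchange factor (10 and 1), and *Slc24a3*, an ion exchanger (11 and 2). W2-only peaks were in excess around *Atxn7l1* (9 W2-only and 0 W1-only). An excess of 8 followed at 10 tied genes, of which the first 4 by symbol are given, *Actn4*, an actin crosslinker (10 and 2), *Cd9*, a tetraspanin (9 and 1), *Dip2b* (9 and 1) and *Dlgap1* (13 and 5). At *Cd9*, D0 had 25 peaks, W1 had 14 and W2 had 22, and at *Actn4* 27, 15 and 24. At *Dab1* the counts were 9, 17 and 7. Such counts grow with the length of a gene.

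Around the 156 genes of the 9 lists, 271 of 921 W1 peaks were W1-only (29.4%) and 337 of 979 W2 peaks W2-only (34.4%), beside 37.1% and 32.7% over all peaks. No list was tested, since windows of neighbouring genes share peaks and the lists were chosen with results known. Epidermal structure and adhesion genes had 51 W1-only of 209 W1 peaks (24.4%, 19.1 to 30.7%) and 56 W2-only of 214 W2 peaks (26.2%, 20.7 to 32.4%). Around *Cdh1*, for E-cadherin, D0 had 22 peaks, W1 19 and W2 26, of which 9 were W2-only. *Perp*, for a desmosomal protein, had the most W1-only peaks of the list, 6, with counts of 19, 21 and 16. Around *Sfn*, for 14-3-3 sigma, the counts were 15, 10 and 14, and all 4 D0 peaks lost at W1 were listed again at W2, beside 32 of 117 (27.4%) in the list and 21.9% over all lost D0 peaks. Around *Krt1* and *Krt10*, the keratins of differentiated epidermis, they were 5, 3 and 0, and 7, 4 and 1. *Gja1*, for connexin 43, had 16, 5 and 2.

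Epidermal transcription factors had 46 W1-only of 148 W1 peaks (31.1%, 24.2 to 38.9%) and 47 W2-only of 147 W2 peaks (32.0%, 25 to 39.9%). *Trp63*, for p63, had 23 peaks at D0, 25 at W1 and 21 at W2, with 8 W1-only and 5 W2-only. *Cebpa* had 14, 5 and 8, with 5 W2-only peaks of which 3 overlapped W2 SOX9. *Ovol1*, a zinc finger repressor, had 9, 1 and 5. Around *Gata3* the counts were 9, 7 and 8. The region there at chr2:9860178-9860696, 29.6 kb downstream of the start, had a total signal of 1810 at D0, none at W1 and 671 at W2, with no SOX9 peak. The strongest region, at chr2:9834996-9835721, had 4905, 7145 and 6315 and overlapped SOX9 at both weeks.

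Hair follicle stem cell and outer root sheath genes had 50 W1-only of 150 W1 peaks (33.3%, 26.3 to 41.2%) and 63 W2-only of 157 W2 peaks (40.1%, 32.8 to 47.9%). *Nfib*, a nuclear factor I gene of the stem cell niche, had the most of both kinds, 10 W1-only and 14 W2-only. The window of *Krt6a* shares its peaks with that of *Krt5*, and both had 5 at D0, 8 at W1 and 11 at W2. Of the 5 W2-only peaks there, 3 overlapped W2 SOX9, the strongest being chr15:101694258-101695442 with a total of 3043. At *Sox9* itself the region 0.606 kb downstream of the start had 1857 at D0, 2306 at W1 and none at W2, and another 29.2 kb downstream had 1278, none and 1742. The first lies within the gene, and the transgene carries the *Sox9* coding sequence. Signal of the transgene and of the gene itself cannot be told apart there.

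Hedgehog pathway genes had 10 W1-only of 31 W1 peaks (32.3%, 18.6 to 49.9%) and 27 W2-only of 48 W2 peaks (56.2%, 42.3 to 69.3%). *Boc*, a co-receptor, had 3 peaks at D0, 2 at W1 and 6 at W2, *Gli1*, a target and effector, 4, 2 and 5, and *Sufu*, the inhibitor of GLI factors, 14, 5 and 9. *Gli2*, another effector, had the most W1-only peaks, 3, beside 3 W2-only. *Shh*, the ligand, had none. NOTCH and EGFR genes had 24 W1-only of 94 W1 peaks (25.5%, 17.8 to 35.2%) and 42 W2-only of 112 W2 peaks (37.5%, 29.1 to 46.7%), and *Egfr* itself had 21, 14 and 18, with 9 W2-only. In WNT pathway genes 30 of 105 W1 peaks were W1-only (28.6%) and 32 of 103 W2 peaks W2-only (31.1%), and *Fzd7*, a receptor, had 2 at D0, 4 at W1 and 9 at W2. For *Fzd7* a window of 10 kb in place of 50 kb gave 1, 2 and 2. *Fzd10*, *Lgr4* and *Tle4* had 4 W1-only peaks each, and *Lgr4*, for a receptor of R-spondins, also 5 W2-only.

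RUNX and AP1 genes had 30 W1-only of 97 (30.9%) and 35 W2-only of 104 (33.7%) peaks. *Runx1*, a factor of hair follicle stem cells, had 4 peaks at D0, 13 at W1 and 17 at W2. Of its 10 peaks gained at W1, 9 were kept at W2, beside 17 of 32 (53.1%) in the list and 38.7% of all gained peaks. The strongest, chr16:92551255-92552114, had no D0 peak, 3267 at W1 and 3930 at W2. The region chr16:92627377-92628005 had none, 707 and 2394, and both overlapped SOX9 at both weeks. *Runx2*, *Fos* and *Junb* had 6 W1-only peaks each, and *Junb* had 13, 8 and 4 peaks in all and *Fosl2* 15, 8 and 12, with 5 W2-only peaks. Mesenchymal genes had 16 W1-only of 55 (29.1%) and 22 W2-only of 63 (34.9%), and *Vim* had 1 peak, at W2, with a total of 574. *Tgfb2* and *Col4a1* had 3 W1-only peaks each, and *Col1a1*, *Col18a1*, *Tgfbi* and *Tnc* 3 W2-only peaks each. Genes of the MLL3/4 and SWI/SNF complexes had 21 of 61 (34.4%) and 23 of 62 (37.1%). *Smarca4*, for the BRG1 ATPase, had 8, 6 and 3, with 4 W1-only. *Smarcd2*, another SWI/SNF subunit gene, had 6 peaks at D0, 2 at W1 and 5 at W2, and 4 of its 5 D0 peaks lost at W1 were listed again at W2, beside 16 of 59 (27.1%) in the list. *Ctnnb1*, for beta-catenin, had 3, 6 and 6.

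At gene starts, the peaks were counted over 21728 protein-coding genes. A promoter peak was listed at W2 alone for 551 genes (2.54%) and for 8 of the 156 listed genes (5.13%), *Boc*, *Col1a1*, *Gli1*, *Jag2*, *Krt6a*, *Notch1*, *Pkp1* and *Tnc*. It was listed at W1 alone for 459 genes (2.11%) and 6 listed genes (3.85%), among them *Arid1b*, *Ereg*, *Fosb* and *Klf4*. D0 and W2 without W1 had 1165 genes (5.36%) and 16 listed genes (10.3%), among them *Egfr*, *Jag1*, *Nfatc1*, *Fosl1*, *Fosl2*, *Axin2* and *Cebpa*. D0 and W1 without W2 had 944 genes (4.34%) and 11 listed genes (7.05%), among them *Sox9*, *Fos*, *Hes1* and *Zfp750*. At *Sox9*, signal of the transgene cannot be told apart from that of the gene itself. W1 and W2 without D0 had 250 genes (1.15%) and 4 listed genes (2.56%), *Foxc1*, *Gli2*, *Krt5* and *Nfib*. All lists held a promoter peak for 2983 genes (13.7%) and 41 listed genes (26.3%). D0 alone had 2045 genes (9.41%) and 12 listed genes (7.69%). Any promoter peak at D0, W1 or W2 was listed for 8397 genes (38.6%) and 98 listed genes (62.8%), so that a higher share of the listed genes in a set is no sign of that set.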

How the data were processed

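MLL3/4 and SOX9 CNR had been measured in EpdSCs sorted from back skin (grafted skin for SOX9 at W12), and MLL3/4 CNR also in cultured EpdSCs, with 2 samples a group. Per the labels and the methods, the authors aligned trimmed read pairs to mm10 with Bowtie2 (2.2.9), removed duplicates with Picard, kept short fragments with SAMtools (1.3.1), pooled the replicates and called peaks with SEACR. In the deposited MLL3/4 lists the maximum signal is coverage in whole numbers that was not scaled, whereas RPKM tracks are described. The total signal, a score deposited beside it, sums the coverage over a peak. In the deposited SOX9 lists the maximum is in RPKM, as computed by the authors, and was used for no comparison. The SOX9 lists were also cut to peaks above a score limit. The labels of the MLL3/4 lists name no such limit. Depth is unknown, so absence from a list is not absence of occupancy. Of 18 lists, 10 were used, and the others belong to comparisons not made here.

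An overlap of 1 bp or more made peaks shared. Promoters reached 1 kb to either side of any GENCODE vM21 transcript start, and gene windows 50 kb beyond the gene. Named peaks were the top 3 by total signal of each class, the 3 highest and lowest ratios of shared peaks in the upper 50% by mean signal, and the 5 genes with the largest excess of W1-only or W2-only peaks, with ties taken in order of symbol. For each gene list, the loci with most peaks of 1 week and 7 loci of the study were named. Other named loci were chosen after their values were seen. Overlaps and words were tested on simulated data. Python 3.11.15, pandas 2.3.3, numpy 2.4.6, scipy 1.17.1 and matplotlib 3.10.9 were used. Alternatives were another overlap, distance, signal limit, list size, promoter or gene window. The members, gene lists and comparisons were chosen with earlier results of these data known.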

Additional observations from a re-analysis of the deposited data

How the results depend on the processing

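No paired analysis was possible because each week has 1 pooled list, and for the same reason no replicate could be left out. The main choices gave 8 shares between lists, in the order W1 peaks shared with W2, W2 peaks shared with W1, lost D0 peaks listed again, gained peaks still listed, W1-only and W2-only peaks with a D0 peak, W1-only peaks on W1 SOX9 and W2-only peaks on W2 SOX9: 62.9%, 67.3%, 21.9%, 38.7%, 34.4%, 40.9%, 16.3% and 23.5%. With 50% or more of the shorter peak covered they were 61%, 65.4%, 21%, 37.2%, 33.5%, 38.9%, 17% and 23.1%. With peaks up to 500 bp apart counted as shared they were 67.2%, 72.3%, 24.2%, 41%, 36%, 44.5%, 15.7% and 25.1%. In the upper 50% of every MLL3/4 list they were 70.4%, 75.4%, 19.8%, 54.8%, 44.2%, 45.4%, 46% and 53.2%. In lists of 29281 peaks each they were 66.5%, 66.3%, 28%, 45.4%, 32.5%, 35.2%, 18.3% and 23.8%. In the upper 50% of the described list alone they were 88%, 89.4%, 35.5%, 77.3%, 57.2%, 61.2%, 37.3% and 46.3%. With a maximum above 5, chosen after seeing the data, they were 66.7%, 68.3%, 21.5%, 47.5%, 44%, 46%, 30.6% and 37.5%. W2-only peaks had the higher SOX9 share of the 2 in each of these. Their D0 share was also higher, but its interval overlapped that of W1-only peaks in the 2 settings on the upper 50% and with a maximum above 5. Autosomes alone, and the lists without the *Cwc22* stretch (chosen after seeing the data), left all 8 within the intervals of the main values. With promoters of 2.5 kb the promoter shares were 29.4% in shared W2, 28.3% in W1-only and 37.2% in W2-only peaks, and in the upper 50% of the list described 17.5%, 18.7% and 27.5%, where the shared peaks were below the W1-only ones, against 20.1% and 19.1% in the main values. SOX words lay in 15.1% of W1-only and 14.3% of W2-only windows reaching 100 bp to each side, and in 9.34% and 8.66% for the upper 50% of each list. Within 10 kb of listed genes there were 154 W1-only and 194 W2-only peaks, a smaller window by construction. In it the order turned for genes of the MLL3/4 and SWI/SNF complexes. Of their W1 peaks 13 of 28 (46.4%) were W1-only, and of their W2 peaks 11 of 26 (42.3%) W2-only. By maximum signal 3 shared peaks were 4-fold higher and 1 was 4-fold lower. The cause of the other differences was not tested. Peak lists without depth limit all of this, since a peak next to the calling limit can be missed at either week.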
